A study of Mus musculus with 4 samples.

Results

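Cxcl1, Cxcl2, Cxcl3 and Cxcl5, the ELR-type CXC chemokines that attract neutrophils, and Cxcr2, the receptor they share, were described across the cell types of transplanted mouse hearts. They are 5 of the 30905 genes in the count matrix and were found by their symbols, each of which named a single row. The study placed donor hearts into the abdominal cavity of C57BL/6J recipients aged 8 to 10 weeks: 2 hearts came from BALB/c donors (labelled Balb/C, allogeneic) and 2 from C57BL/6J donors (syngeneic). All 4 grafts were removed on day 5, digested with enzymes, freed of red cells by lysis and loaded without a sort on the 10x Chromium 3′ platform. The cells of the 4 grafts arrived in a single merged matrix whose barcodes end in a number from 1 to 4. No label ties a number to a graft, so the numbers are called libraries 1 to 4 here and no comparison between allogeneic and syngeneic grafts was made. There is no replicate of a known group, so no test was run, and the intervals given are 95% intervals that cover counting error only.

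CXC chemokines with a Glu-Leu-Arg (ELR) motif before their first cysteines are secreted by activated stromal, endothelial and myeloid cells and recruit neutrophils into inflamed tissue through Cxcr2, a G protein-coupled receptor carried mainly by neutrophils. Cxcl1 and Cxcl2 are induced by interleukin 1, tumour necrosis factor and Toll-like receptor signals. Cxcl3 is a close relative of Cxcl2, and Cxcl5, also known as LIX, is known as a product of epithelial and stromal cells. In transplanted hearts neutrophils are among the first leukocytes to enter after blood flow is restored.

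On GRCm38, with GENCODE M21 genes, the ligand genes lay on the plus strand of chromosome 5 within 147 kb that held 7 protein-coding genes. In order along the chromosome these were Cxcl5 (ENSMUSG00000029371, 90759360 to 90761624), Ppbp, Pf4, Cxcl3 (ENSMUSG00000029379, 90786103 to 90789600), Cxcl15, Cxcl1 (ENSMUSG00000029380, 90891241 to 90893115) and Cxcl2 (ENSMUSG00000058427, 90903871 to 90905938). Cxcr2 (ENSMUSG00000026180) lay on the plus strand of chromosome 1 at 74153989 to 74161246. No annotated gene overlapped any of the 5. The transcripts of Cxcl2 and Cxcl3 shared an identical stretch of 110 bases, from which reads cannot be placed on either gene alone. It began 851 bases from the 3′ end of Cxcl3 and at least 940 bases from that of Cxcl2, away from the ends that this 3′ assay reads. No other pair of the 5 genes shared a stretch of 31 bases.

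Cxcl1, Cxcl2 and Cxcl3 also shared a sequence upstream of their starts. The lines that follow hold the 150 bases before the RefSeq start of each gene on GRCm38.p6, plus strand, at chr5:90891095-90891244, chr5:90903749-90903898 and chr5:90785951-90786100. Capitals mark GGGAATTTCCC, the longest run of letters common to the 3 windows, which holds a form of the motif known to be bound by NF-kappaB.
Cxcl1: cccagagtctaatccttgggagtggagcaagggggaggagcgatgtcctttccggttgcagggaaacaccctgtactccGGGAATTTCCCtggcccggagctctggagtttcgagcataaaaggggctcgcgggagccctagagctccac
Cxcl2: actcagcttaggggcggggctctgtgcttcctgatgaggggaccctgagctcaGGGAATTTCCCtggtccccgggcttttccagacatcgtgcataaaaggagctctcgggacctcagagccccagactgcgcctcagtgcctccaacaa
Cxcl3: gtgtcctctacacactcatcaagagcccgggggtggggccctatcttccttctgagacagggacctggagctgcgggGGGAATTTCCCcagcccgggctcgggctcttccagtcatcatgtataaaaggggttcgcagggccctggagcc
The run of 11 bases spanned positions 71 to 61 before the start in Cxcl1, 97 to 87 in Cxcl2 and 73 to 63 in Cxcl3, on the strand of the gene in each. Of 32851 windows of the same length in the table, 10 held it on either strand (0.0304%), and since it was taken from these 3 windows that share is a description. Cxcl5 had no window in the table, so its upstream sequence was not examined. The window of Cxcr2 did not hold these letters, nor did that of any of the 25 genes with a window among 34 genes listed for this pathway. A match is a description of the letters and was not tested as a binding site.

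The 4 libraries held between 13112 and 13907 deposited cells and between 96020294 and 166079145 unique molecular identifiers (UMIs, each standing for 1 captured transcript). After filters, 42395 cells were kept, with medians of 4578 to 11865 UMIs per cell. They formed 28 clusters, named by marker genes as granulocyte-like, macrophage-like, fibroblast-like and so on, and clusters that failed the marker rule were left unnamed. Clusters were built without the 5 genes. Library 2 stood apart in its makeup: it held 3 of the 4436 fibroblast-like cells, 1021 of the 1030 cells of unnamed cluster 16, and 2688 of the 3824 granulocyte-like cells. Granulocyte transcripts were also spread through its other cells. The granulocyte alarmin transcript S100a8 stood at 1073 CPM (UMIs per 1000000 non-mitochondrial UMIs of the group) in its T/NK-like cells, against 11.2, 16.1 and 19.4 CPM in those of libraries 1, 3 and 4. Of 7 granulocyte markers, 6 were found in the T/NK-like cells of library 2, with Ly6g at 0, and their summed level was 2475 CPM there against 44.7 to 64.1 CPM in the other libraries. The summed level in granulocyte-like cells was 175389, 197146, 71353 and 46704 CPM in libraries 1 to 4. Levels in T/NK-like cells of the same library are therefore given beside each gene. These cells are read here as lacking the chemokines. The part of such spread in any level was not tested. Comparisons of level with T/NK-like cells are in CPM and were not matched for depth. In library 2, S100a8 had 797 UMIs in 165 T/NK-like cells, 1193 in 247 smooth muscle-like cells and 12247 in 2445 cells of unnamed cluster 5. Their median depths were 4322, 10921 and 902 UMIs, and their S100a8 levels 1073, 389 and 3552 CPM. Among deposited cells 308 barcodes occurred in 2 libraries, and among kept cells 190 did.

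The genes fell to different cell populations. Of all Cxcl2 UMIs in kept cells, 40.1% lay in macrophage-like, 29.3% in granulocyte-like and 14.7% in unnamed cluster 2 cells, a library 4 population led by Ly6i, Ms4a4c, Ly6c2 and Plac8. Cxcl3 was divided between macrophage-like cells (49.8%) and granulocyte-like cells (32.6%). Stromal cells held most of Cxcl1, with 34.0% in unnamed cluster 16, 33.4% in fibroblast-like and 13.0% in endothelial-like cells. Cluster 16 alone held 73.5% of Cxcl5 while making up 2.43% of kept cells, and granulocyte-like cells held 91.3% of Cxcr2 while making up 9.02%. Library 2 contributed 23.0% of all UMIs but 52.7% of those of Cxcl1, 52.5% of Cxcl2, 97.2% of Cxcl3, 89.8% of Cxcl5 and 75.0% of Cxcr2.

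**Figure D1:**
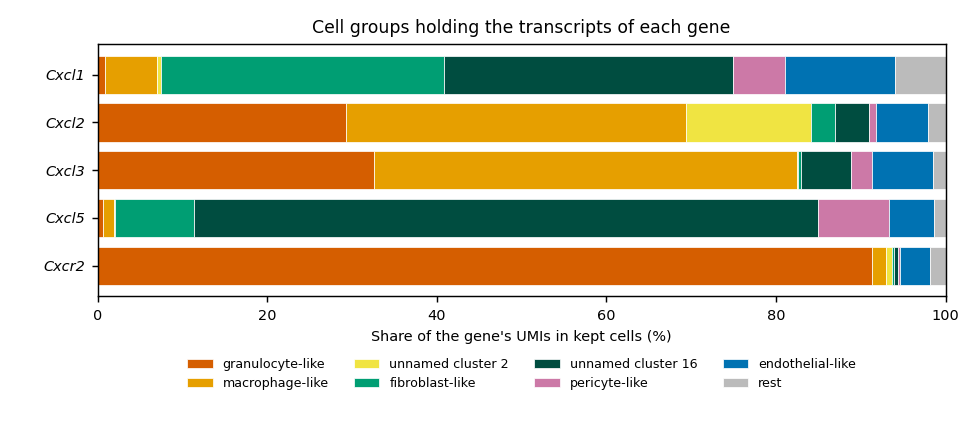
Share of each gene's UMIs (percent, x axis) by cell group (colours) for the 5 genes, over all kept cells of the 4 libraries. Granulocyte-like cells fill 91.3% of the Cxcr2 bar, cluster 16 fills 73.5% of the Cxcl5 bar, and macrophage-like cells take the largest piece of Cxcl2 and Cxcl3.

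Cxcl2, a ligand made quickly by activated myeloid cells, was the most abundant of the 5 transcripts over all kept cells. Within library 1 Cxcl1 was above it, at 844 against 448 CPM over all cells of that library. The highest pooled level of Cxcl2 was in granulocyte-like cells at 14240.1 CPM (14179.8 to 14301). Macrophage-like cells followed at 3847 CPM (3833 to 3861) and unnamed cluster 2 at 2156 CPM (2143 to 2169). By library, granulocyte-like cells held 5609, 13684, 11193 and 19560.5 CPM in libraries 1 to 4. Their intervals (5386 to 5839.7, 13617 to 13752, 10963 to 11426 and 19382 to 19740.5) did not overlap, and the highest library was 3.49-fold above the lowest. Macrophage-like cells held 3708, 10354, 2678 and 1844 CPM in libraries 1 to 4. Granulocyte-like cells were thus above macrophage-like cells in all 4 libraries, by 1.51-fold in library 1, 1.32-fold in library 2 and 4.18-fold in library 3. In library 4, where cluster 2 came next, the gap was 9.07-fold. The library 1 order rests on 97 granulocyte-like cells, of which 10 held 50.3% of the Cxcl2 UMIs. In that library 55 of 541 macrophage-like cells held 57.2% of theirs. The intervals do not cover such spread between cells.

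Cxcl2 was also the ligand found in most granulocytes. With every cell thinned to 1000 UMIs, 75, 92.8, 76.9 and 93.5% of granulocyte-like cells in libraries 1 to 4 had a Cxcl2 UMI, against 1.15, 28.0, 5.88 and 13.1% of T/NK-like cells. Without thinning the shares were 80.4 to 98.2% in granulocyte-like cells, whose median depths were 2903 to 3900.5 UMIs, and 12 to 70.7% in T/NK-like cells, whose median depths were 4322 to 11322. As a level, T/NK-like cells held 19.5, 293, 73.2 and 101 CPM in libraries 1 to 4, so the background of library 2 was the highest. Stromal and endothelial groups were below the macrophage-like cells of their library. Fibroblast-like cells held 109, 209.7 and 722 CPM in libraries 1, 3 and 4, and pericyte-like cells held 119, 543 and 203 CPM in libraries 1, 2 and 3. Cluster 16 held 1296 CPM in library 2. Endothelial-like cells held 120.2, 953, 198 and 160.1 CPM in libraries 1 to 4. The value of library 2 included cluster 19 at 4892 CPM, and the main endothelial cluster of that library, number 4, held 504 CPM. Cluster 19 had 804 cells, with Cxcl5, Cxcl3, Prg4 and Cxcl1 among its leading genes. Clustered again among endothelial-like cells only, the 804 cells were led by Cxcl3, Cxcl5 and the granulocyte transcripts Retnlg, S100a9 and S100a8, among others.

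**Figure D2:**
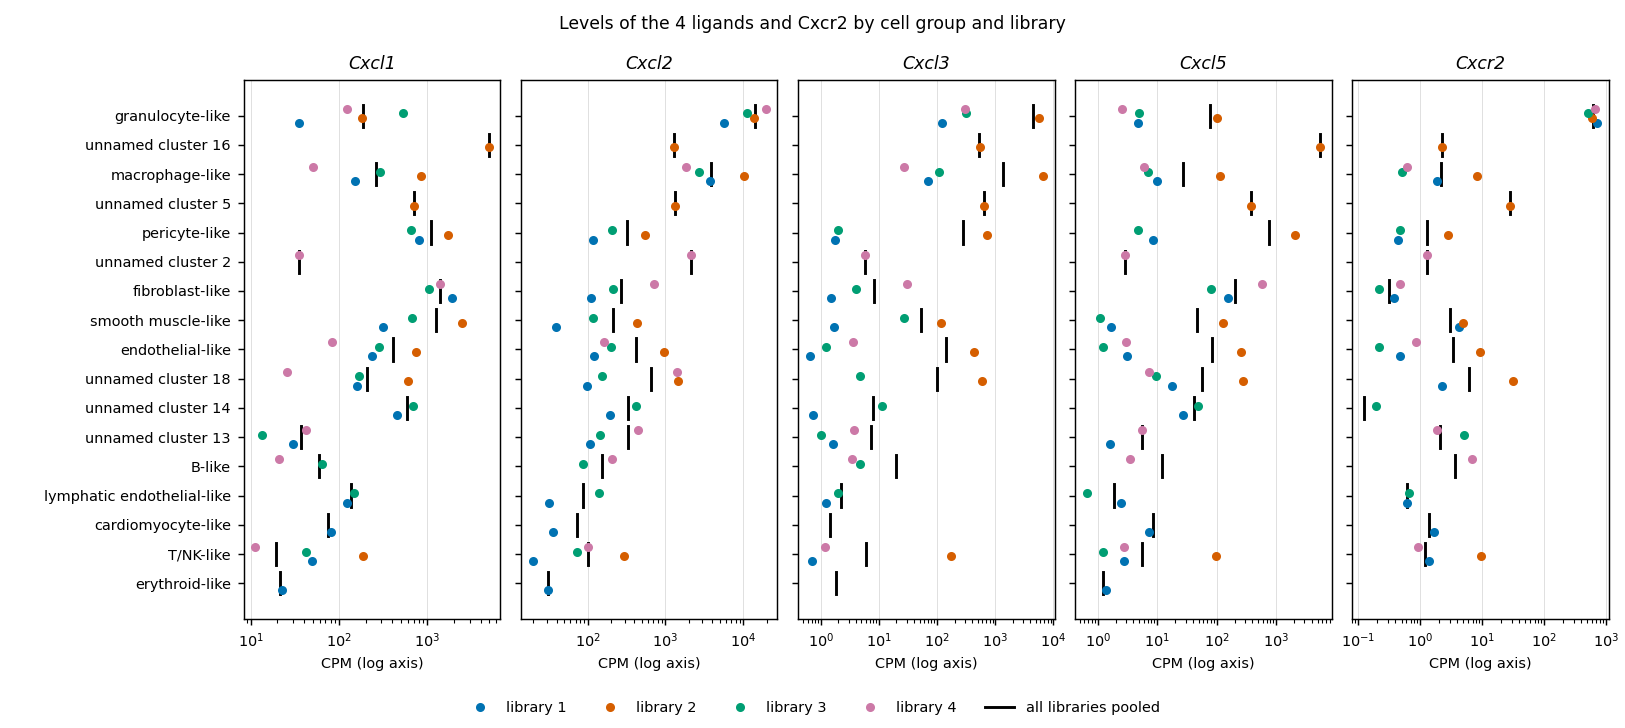
Level of each gene (CPM, log axis) by cell group (rows) in 5 panels. Coloured points are single libraries with at least 50 cells and a value above 0, and the black bar is the level over all libraries. Granulocyte-like cells lie far to the right of every other group for Cxcr2, and the library 2 points of Cxcl3 and Cxcl5 lie to the right of the other libraries in most groups.

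Cxcl3 was mainly a transcript of library 2. Granulocyte-like cells held 123, 5743, 309 and 298 CPM in libraries 1 to 4, so library 2 was 18.6-fold above the next library. Macrophage-like cells held 69.3, 6599.8, 109 and 26.5 CPM in libraries 1 to 4, a 60.7-fold gap. In libraries 1, 3 and 4 granulocyte-like cells were above macrophage-like cells, and in library 2 macrophage-like cells were above granulocyte-like cells, by 1.15-fold. Beside these stand the T/NK-like values of the same libraries, 0.698, 172, 0 and 1.16 CPM in libraries 1 to 4. The library 2 levels of granulocyte-like and macrophage-like cells were 33.3 and 38.3 times that of T/NK-like cells. S100a8 was at 72148, 82605, 31601 and 16363 CPM in granulocyte-like cells of libraries 1 to 4, so library 2 was the highest there too, with library 1 close to it.

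With cells thinned to 1000 UMIs, 74.7% of granulocyte-like cells of library 2 had a Cxcl3 UMI, against 6.52, 11.0 and 12.2% in libraries 1, 3 and 4. Of T/NK-like cells of library 2, 19.3% had one. Without thinning the shares were 7.22, 89.2, 15.2 and 17.2% of granulocyte-like cells in libraries 1 to 4 and 0.571, 52.7, 0 and 1.71% of T/NK-like cells, where the 0 of library 3 allows up to 2.48%. The granulocyte-like share was above the T/NK-like one beyond counting error in libraries 2, 3 and 4, and the intervals overlapped in library 1. The few positive cells of libraries 3 and 4 carried nearly all of it, since the top 10% of cells held 94.8% and 90.7% of the UMIs, against 46.5% in library 2. Without library 2 the pooled level of granulocyte-like cells was 279.5 CPM in place of 4444 CPM, and that of macrophage-like cells 52.3 CPM in place of 1337 CPM. Among stromal cells of library 2, pericyte-like cells at 711 CPM (691 to 731) and cluster 16 at 537 CPM (527 to 546) were above T/NK-like cells. Smooth muscle-like cells at 119 CPM (107 to 131) and endothelial cluster 4 at 89.0 CPM were not above them in CPM. As counts, smooth muscle-like cells had 364 Cxcl3 UMIs in 247 cells and T/NK-like cells 128 in 165. In pericyte-like cells and cluster 16 few cells held most of the transcript: the top 10% held 88.1% of the pericyte-like and 86.6% of the cluster 16 UMIs. The median cell of each group held 1 UMI, as did that of T/NK-like cells. Endothelial-like cells of library 2 as a whole held 426 CPM, 2.47 times the level of its T/NK-like cells, with cluster 19 at 3372 CPM among them. In library 4 fibroblast-like cells held 30.9 CPM (28.1 to 33.8), also above its T/NK-like cells.

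Macrophage-like cells differed among themselves in Cxcl3 more than in Cxcl2. Cluster 15, led by Arg1, Ccl24 and Ccl9, held 7635 CPM of Cxcl3 and 10771 CPM of Cxcl2 in its 845 library 2 cells. Its cells of libraries 1 and 3 held 186 and 635 CPM of Cxcl3. Cluster 12, led by Fcrls and Ms4a7, held 38.1, 611 and 76.4 CPM of Cxcl3 and 4089, 7943 and 2568 CPM of Cxcl2 in libraries 1 to 3. In each of these 3 libraries cluster 15 was above cluster 12 in Cxcl3. Outside library 2 few macrophage-like cells carried Cxcl3: the top 10% held 100, 99.1 and 100% of its UMIs in libraries 1, 3 and 4. Single cells there held up to 108, 138 and 227 UMIs. Cluster 15 had 108 and 76 cells in libraries 1 and 3, so its levels there may rest on few cells. Cluster 8, led by Ccl8 and found in library 4, held 1846 CPM of Cxcl2 and 24.9 CPM of Cxcl3. The name of cluster 15 rested on 4 markers. In 4 of 7 other clusterings the matching cells were unnamed or monocyte-like, and there the macrophage-like level of Cxcl3 was 49.7 to 86.6 CPM.

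When the macrophage-like cells were clustered again, 2 sub-clusters of library 2 differed in their ligands. The 719 cells led by Chil3, Cxcl3, Inhba, Lcn2 and S100a8 held 7855 CPM (7806 to 7905) of Cxcl3. The 143 cells with Cd163, Mt2, Lyve1, Cxcl5 and Mrc1 among their leading genes held 371 CPM (344 to 398), a 21.2-fold difference. Of these genes Cd163, Lyve1 and Mrc1 are known from resident macrophages. S100a8 stood at 3887 and 536 CPM in these 2 sub-clusters, and the part of spread transcripts in the Cxcl3 difference was not tested. Their Cxcl2 levels, 10972 and 8319 CPM, differed by 1.32-fold. Cxcl1 and Cxcl5 went the other way, at 835 and 1066 CPM for Cxcl1 and 80.3 and 325 CPM for Cxcl5. The Cxcl5 of the Cd163 cells rested on 1 cell, which held 453 of their 649 UMIs. Without it their level was 98.7 CPM, close to the 98.2 CPM of T/NK-like cells in that library, at median depths of 13521 and 4322 UMIs. Without the highest cell of each, Cxcl1 was 802 and 966 CPM and Cxcl3 7777 and 301 CPM.

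Cxcl1, the ligand long known as KC, was a stromal transcript. Unnamed cluster 16 held 4942 CPM (4913 to 4972) and was followed by fibroblast-like cells at 1399 CPM (1391 to 1407), smooth muscle-like cells at 1255 CPM (1231 to 1279) and pericyte-like cells at 1099.8 CPM (1085 to 1115). Cluster 16 was led by Prg4, Cxcl5, Ptx3 and Mt2. It expressed the fibroblast marker Dcn at 6176 CPM but passed the rule for only 2 fibroblast markers, so it was left unnamed. Counting it as fibroblast-like moved that group to 2192 CPM of Cxcl1 and 1374 CPM of Cxcl5. Fibroblast-like cells held 1912, 1031 and 1405 CPM in libraries 1, 3 and 4 and were the highest group in each of these 3 libraries. The gap to the next group was 2.37-fold in library 1, 1.51-fold in library 3 and 11.5-fold in library 4.

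Mural cells held Cxcl1 at levels that differed between libraries. Pericyte-like cells held 808, 1719 and 654 CPM in libraries 1, 2 and 3, and smooth muscle-like cells held 314, 2443 and 668 CPM in libraries 1, 2 and 3. Smooth muscle-like cells were below pericyte-like cells in library 1, close to them in library 3 (638 to 699 against 634 to 674 CPM) and above them in library 2. Endothelial-like cells held 236, 737, 287 and 83.9 CPM in libraries 1 to 4. The endothelial-like level of library 2 included cluster 19, 804 cells with 8174 CPM of S100a8 that were placed by 3 endothelial markers, and without it the pooled endothelial-like level was 317 CPM in place of 407 CPM. The main endothelial cluster of library 2, number 4, held 483 CPM, above the 184 CPM of T/NK-like cells in that library.

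Granulocyte-like cells differed in Cxcl1 between libraries. Their values were 35.4, 183, 528 and 122 CPM in libraries 1 to 4, and those of T/NK-like cells were 48.9, 184, 42.2 and 11.2 CPM in libraries 1 to 4. In libraries 1 and 2 they did not exceed the T/NK-like level beyond counting error. In libraries 3 and 4 they did, and there 90.8% and 92.3% of the UMIs lay in the top 10% of the cells. Macrophage-like cells held 152, 842, 289 and 50.6 CPM in libraries 1 to 4, more than T/NK-like cells of the same library in all 4. Their top 10% of cells held 81.9, 76.2, 84.8 and 84.1% of these UMIs. Granulocyte-like cells were above macrophage-like cells in libraries 3 and 4, and in library 4 they were the highest group after fibroblast-like cells.

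Within fibroblast-like cells Cxcl1 ranged widely. In library 1 the 869 cells led by Gsta3 and Slc10a6 held 3224 CPM (3189.9 to 3259), and the 106 cells led by Ddah1, Rflnb and Cthrc1, the last a gene of matrix-producing fibroblasts, held 60.8 CPM (49.7 to 73.7), which is 53.0-fold lower. In library 3 the 681 cells of the Cthrc1 sub-cluster were low again, at 49.5 CPM (45.7 to 53.6), and the 744 cells led by C1qtnf3 and Hspa1b held 1545 CPM. A sub-cluster with C3 and Steap4 among its leading genes held 1466 and 2154 CPM of Cxcl1 in libraries 1 and 3. The same sub-cluster held 384 and 428 CPM of Cxcl5, against 143 CPM in the Gsta3 cells of library 1 and 8.73 CPM in the Cthrc1 cells of library 3. Thus the fibroblasts richest in Cxcl1 in library 1 were not those richest in Cxcl5.

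Cxcl5 was concentrated in cluster 16, at 5445 CPM (5414 to 5475), and next in pericyte-like cells at 753 CPM (740.1 to 765). Pericyte-like cells held 8.64, 2055 and 4.80 CPM in libraries 1, 2 and 3, so their pooled level came from library 2, and it was 16.4 CPM without that library. Within library 2 the transcript was uneven among pericytes: 51.2% of them had a UMI (median depth 6334 UMIs), against 35.2% of T/NK-like cells (median depth 4322). The median pericyte held 1 UMI and the highest 638, and the top 10% of the cells held 87.0% of the UMIs. In the other libraries the leading group was fibroblast-like, with 156, 80.5 and 583 CPM in libraries 1, 3 and 4. Each was above the T/NK-like level of the same library, 2.79, 1.24 and 2.77 CPM in libraries 1, 3 and 4. Cxcl5 was uneven among fibroblast-like cells too: the top 10% of them held 78.6, 93.7 and 70.0% of the UMIs in libraries 1, 3 and 4.

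Cluster 16 transcripts also appeared in the other cells of library 2. Prg4, a lubricin gene that led cluster 16 at 5191 CPM, stood at 61.9 CPM in its T/NK-like cells. Per 1000 Prg4 UMIs, Cxcl5 had 1053 (1044 to 1061) UMIs in cluster 16, 1587 (1083 to 2348) in T/NK-like cells, 1242 (1162 to 1328) in endothelial cluster 4 and 1360 (1228 to 1507) in granulocyte cluster 6. Pericyte-like cells had 57772 (50808 to 65968) Cxcl5 UMIs per 1000 of Prg4, with Prg4 itself at 35.6 CPM, so Cxcl5 there was not accompanied by Prg4. Macrophage clusters 12 and 15 had 2674 (2088 to 3451) and 3714 (3320.02 to 4163). In library 2 granulocyte-like, macrophage-like and smooth muscle-like cells held 99.7, 113 and 126 CPM of Cxcl5. None exceeded its T/NK-like cells, at 98.2 CPM, beyond counting error. Depth was not matched: the medians were 3900.5, 14751.5 and 10921 UMIs in these groups and 4322 in T/NK-like cells. As counts, Cxcl5 had 1141 UMIs in 2688 granulocyte-like cells and 1694 in 998 macrophage-like cells, 453 of them in 1 cell. It had 386 in 247 smooth muscle-like cells and 73 in 165 T/NK-like cells. Endothelial-like cells of library 2 held 255 CPM of Cxcl5, above its T/NK-like cells, with cluster 19 at 1923 CPM among them. Cluster 19 also held 1262 CPM of Prg4, with 1524 (1467 to 1583) Cxcl5 UMIs per 1000 of Prg4. The part of spread transcripts in these levels was not tested.

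Cxcr2, the receptor that guides neutrophils along these ligands, stood far higher in granulocyte-like cells than in any other group. They held 716, 595, 507 and 661 CPM in libraries 1 to 4, with intervals of 638 to 801, 581 to 609, 459 to 558 and 629 to 695. Libraries 1 and 4 overlapped, and the highest was 1.41-fold above the lowest, the narrowest range of the 5 genes in these cells. At 1000 UMIs per cell, 56.5, 37.8, 37.6 and 43.1% of granulocyte-like cells in libraries 1 to 4 had a Cxcr2 UMI. Unthinned, the shares were 78.4, 70.8, 64.1 and 66.5%, while those of T/NK-like cells were 1.14, 3.64, 0 and 1.14%. The 0 of library 3 allows a share of up to 2.48% of its 121 T/NK-like cells with a UMI.

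Outside granulocytes Cxcr2 followed S100a8 in library 2. Per 1000 S100a8 UMIs it had 7.27 (7.09 to 7.45) UMIs in granulocyte cluster 6, 7.40 (6.13 to 8.86) in endothelial cluster 4, 7.31 (5.42 to 9.65) in cluster 16, 7.92 (6.42 to 9.67) in the shallow unnamed cluster 5, 6.96 (6.03 to 8.0) in cluster 19 and 5.86 (3.52 to 9.16) in pericyte-like cells. These intervals all overlapped that of cluster 6, as did that of smooth muscle-like cells at 12.6 (7.01 to 20.8). Granulocyte cluster 17 of library 2 had 6.20 (5.58 to 6.86), which did not overlap cluster 6. Macrophage cluster 15 had a lower ratio of 2.32 (1.91 to 2.79), and the ratio among granulocytes themselves was 15.6 (14.1 to 17.2) in cluster 17 of library 3 and 40.6 (38.6 to 42.8) in cluster 20 of library 4. T/NK-like cells of library 4 had 48.3 (29.6 to 74.7), which overlapped its granulocytes. Endothelial-like, macrophage-like, pericyte-like and smooth muscle-like cells of library 2 held 9.38, 8.17, 2.85 and 4.89 CPM of Cxcr2, none above the 9.42 CPM of its T/NK-like cells beyond counting error. Fibroblast-like cells held 0.320 CPM over all libraries. Cluster 5 stood at 28.1 CPM, above T/NK-like cells in CPM, at the ratio to S100a8 given for it. As counts, it had 97 Cxcr2 UMIs in 2445 cells of median depth 902. T/NK-like cells of library 2 had 7 in 165 cells of median depth 4322. B-like cells of library 4 were at 6.87 CPM (1.87 to 17.6), from 4 UMIs that all lay in 1 cell. Endothelial-like cluster 19 held 56.9 CPM, also at the ratio to S100a8 given for it. No other named endothelial, stromal or lymphoid group was above the T/NK-like cells of its library in CPM beyond counting error.

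**Figure D3:**
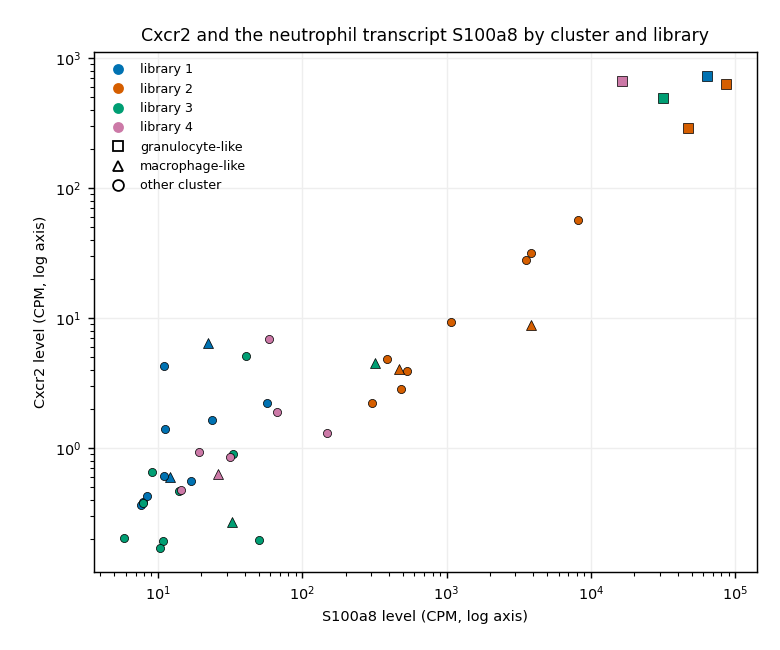
Cxcr2 (CPM, y axis, log) against S100a8 (CPM, x axis, log), each point 1 cluster in 1 library. In library 2 endothelial, stromal and granulocyte clusters lie at 5.86 to 12.6 Cxcr2 UMIs per 1000 of S100a8. Granulocyte cluster 6 lies at 7.27 and cluster 17 at 6.20, and granulocytes of library 4 lie higher at 40.6.

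Cxcl2 led the mix of ligands in myeloid cells and Cxcl1 in fibroblasts. Among the summed UMIs of the 4 ligands, Cxcl2 made up 97.2, 69.4, 93.0 and 97.9% in granulocyte-like cells of libraries 1 to 4, and 94.1, 57.8, 86.9 and 95.7% in macrophage-like cells. In library 2 Cxcl3 took most of the remainder, 29.1% (29.0 to 29.3%) in granulocyte-like and 36.9% (36.7 to 37.0%) in macrophage-like cells. In fibroblast-like cells Cxcl1 made up 87.8, 77.8 and 51.3% in libraries 1, 3 and 4. Library 4 fibroblasts thus had the most even mix, with 21.3% (20.9 to 21.7%) Cxcl5 beside 26.4% Cxcl2. Cluster 16 in library 2 held 40.4% (40.2 to 40.6%) Cxcl1 and 44.6% (44.5 to 44.8%) Cxcl5. Pericyte-like cells were 86.2% Cxcl1 in library 1, 75.7% in library 3 and 34.2% in library 2, where Cxcl5 was 40.9% (40.3 to 41.4%). Endothelial-like cells were 65.6, 31.1, 58.8 and 33.5% Cxcl1 in libraries 1 to 4, and Cxcl2 was their largest part in libraries 2 and 4, at 40.2 and 63.9%. T/NK-like cells of library 4 were 86.9% Cxcl2.

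**Figure D4:**
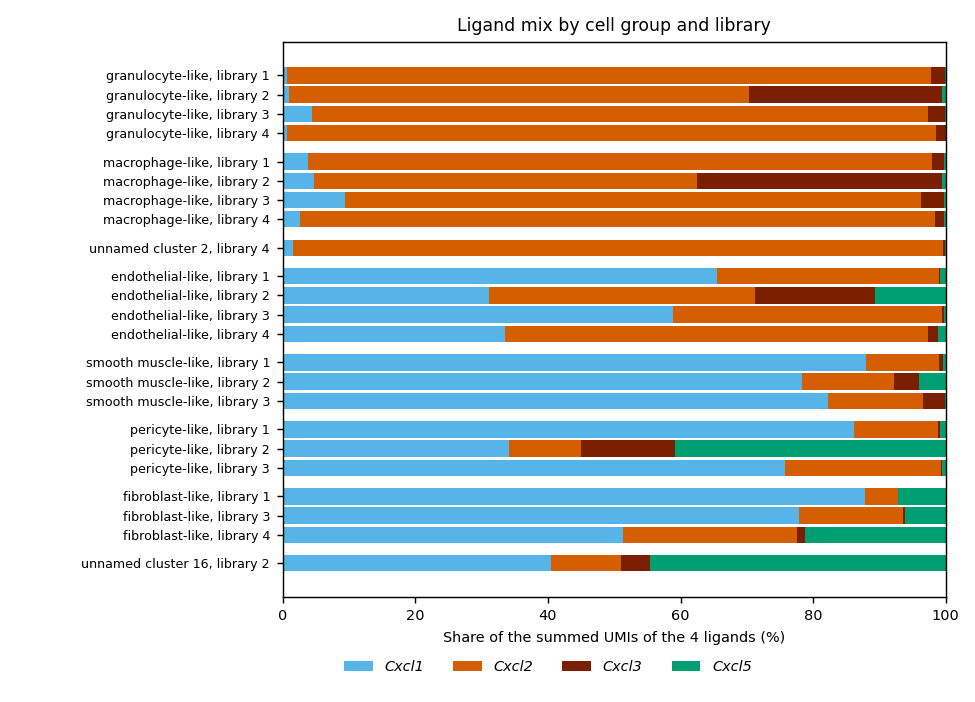
Makeup of the summed UMIs of Cxcl1, Cxcl2, Cxcl3 and Cxcl5 (percent) by cell group and library. Myeloid bars are mostly Cxcl2, with 29.1% Cxcl3 in library 2 granulocyte-like cells, and fibroblast-like bars are mostly Cxcl1.

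Granulocytes of library 2 differed among themselves in ligand and receptor. The 494 cells led by Camp, Ltf and Ngp, genes of granule proteins made as neutrophils mature, held 5036 CPM (4958 to 5116) of Cxcl2 and 1153 CPM (1116 to 1191) of Cxcl3. The 1180 cells led by Ecm1 and Chil3 held 18114 CPM (17996 to 18233) of Cxcl2 and 7657 CPM (7580.4 to 7734) of Cxcl3, which are 3.60-fold and 6.64-fold higher. The 707 cells led by Ero1l and Bnip3, genes known to respond to low oxygen, were close to the latter in Cxcl2 at 16742 CPM and in Cxcl3 at 8166 CPM. Cxcr2 had another order: it was highest in the Camp cells at 764 CPM (734 to 795), lower in the Ecm1 cells at 663 CPM (640.3 to 686) and lowest in the Ero1l cells at 294 CPM (274 to 315). The Ecm1 and Ero1l cells thus had like ligand levels and a 2.25-fold difference in receptor. Sub-clusters of the other libraries were mostly 1 library each: the 783 library 4 cells, led by Gbp2 and Ifi47, held 19560.5 CPM of Cxcl2, 298 of Cxcl3 and 661 of Cxcr2. The remaining 306 cells of library 2 were shallow, and in the sub-cluster shared by libraries 1 and 3 Cxcl2 was 6619 and 11208 CPM and Cxcr2 1005 and 497 CPM.

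**Figure D5:**
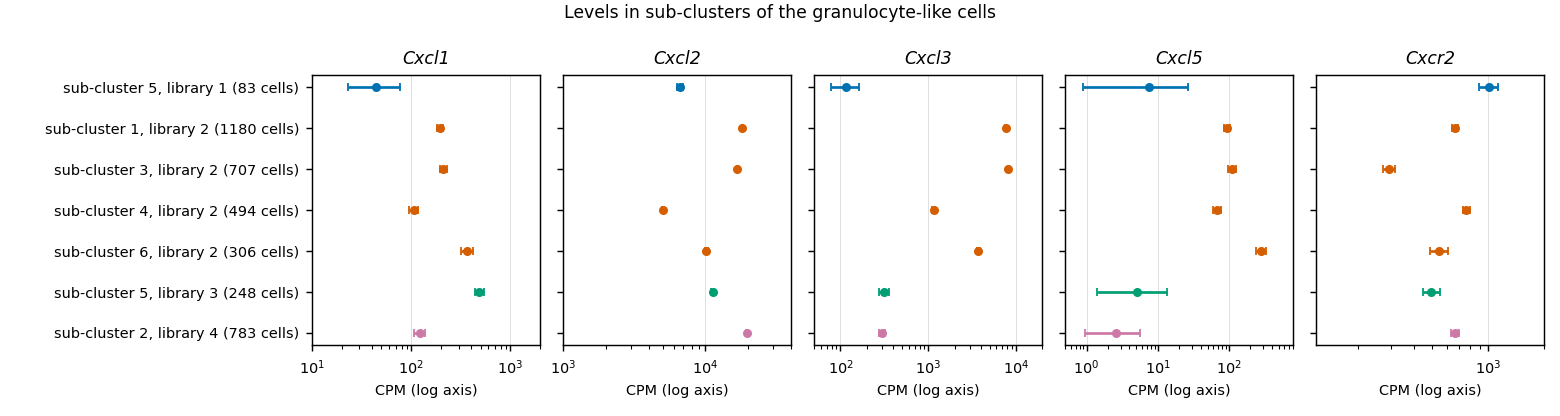
Levels of Cxcl1, Cxcl2, Cxcl3, Cxcl5 and Cxcr2 (CPM, log axis, 1 panel each) in granulocyte-like sub-clusters by library, with 95% Poisson intervals. In library 2 the Camp sub-cluster has the lowest Cxcl2 of the 3 deep sub-clusters (5036 CPM) with the highest Cxcr2 (764 CPM).

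Receptor and ligand transcripts were found in the same granulocytes. In library 2, 1867 of the 1902 granulocyte-like cells with a Cxcr2 UMI also had a Cxcl2 UMI (98.2%). The share was 98.3% in the cells without a Cxcr2 UMI, so nearly all of these granulocytes had Cxcl2 in either case. At 1000 UMIs per cell, Cxcl2 was found in 92.3% (90.3 to 93.9%) of cells with Cxcr2 and 93.1% (91.7 to 94.3%) of the rest in library 2, and in 91.7% (88.1 to 94.5%) and 94.9% (92.4 to 96.8%) in library 4. The shares were 69.8% (59.6 to 78.7%) and 81.1% (74.2 to 86.9%) in library 3, and 76.9% (63.2 to 87.5%) and 72.5% (56.1 to 85.4%) in library 1. These intervals overlapped within each library, and overlap alone does not decide whether the shares differed. The Cxcl2 share was lower in cells with Cxcr2 in libraries 2, 3 and 4 and higher in library 1. The difference was not tested. Cxcl3 in library 2 was found in 70.8% (67.7 to 73.7%) of cells with Cxcr2 and 77.0% (74.8 to 79.1%) of the rest, intervals that did not overlap. Without thinning these shares were 89.4% (88.0 to 90.8%) and 88.8% (86.4 to 90.9%), which overlapped. Sub-clusters were not separated in these shares.

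Other genes of the pathway were taken from a list of 34, of which 32 had at least 100 UMIs (Cxcl15 had 10 and Il17a 45). A gene was called concentrated when its highest group was at least 4-fold above the next with 10 CPM added, which held for 2.40% of 15412 genes. Cxcr2, at 16.2-fold, and Cxcl5, at 7.15-fold, were called, 2 of the 5. Cxcl2 (3.69), Cxcl1 (3.52) and Cxcl3 (3.31) were below the limit. These calls used levels pooled over libraries. Within each single library, with nothing added, Cxcr2 was at least 18.8-fold over the next group. Cxcl5 in cluster 16 was only 2.66-fold over pericyte-like cells within library 2. In fibroblast-like cells Cxcl5 was 5.70-fold over the next group in library 1 and 1.67-fold in library 3. In library 4 it was at 583 CPM there, against 7.41 CPM from 2 UMIs in the next group, unnamed cluster 18. Cxcl2 was 1.51, 1.32, 4.18 and 9.07-fold over the next group in libraries 1 to 4. Cxcl1 and Cxcl3 were 11.5 and 9.64-fold in library 4 and under 4-fold in libraries 1 to 3. In the list, 4 of 32 were called, all highest in granulocyte-like cells: Fpr1 (12.9-fold), a receptor for formyl peptides, Csf3r (7.74-fold), the receptor for G-CSF, Tnf (6.38-fold) and Il1a (4.15-fold). By levels pooled over libraries, 15 of the 32 were highest in granulocyte-like cells, against 5.95% of all genes, and 4 in cluster 16, against 7.47%. The list was picked for roles around neutrophils and includes receptors known from them. It was also chosen with earlier results of these data known, so its counts are a description.

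Among other receptors, the granulocyte-like cells held 12.7 CPM of Cxcr1, the related receptor, and 656, 957 and 399 CPM of the chemoattractant receptors Fpr1, C5ar1 and Fpr2. Ackr1, which binds these ligands on venular endothelium, had at most 19.7 CPM over a whole group, in unnamed cluster 14. It was among the leading genes of 1 endothelial sub-cluster, the 246 cells led by Igfbp5 and Selp, which held 109.6 CPM (98.5 to 122). Of the inducers, Tnf was highest in granulocyte-like cells in all 4 libraries, at 619, 1364, 2514 and 1363 CPM. Il1b in these cells was 8192, 5229.9, 6971 and 18967 CPM. They were the highest group for Il1b in libraries 1, 3 and 4, and in library 2 macrophage-like cells at 5268 CPM (5232 to 5305) overlapped them (5188 to 5272). Cluster 16, the leading population of Cxcl1 and Cxcl5, led Il6, the interleukin 1 receptor Il1r1 and Csf3, the gene of G-CSF, by levels pooled over libraries, but not all 3 within library 2. There it held 394 CPM (386 to 402) of Il6, below pericyte-like cells at 428 CPM (412 to 444), and 110.3 CPM (106 to 115) of Csf3, below macrophage-like cells at 209 CPM (201 to 216). Its Il1r1 level of 144 CPM (139 to 149) was next to that of smooth muscle-like cells at 126 CPM (113 to 139) and overlapped that of library 1 fibroblast-like cells, 144 CPM (139 to 148). Pf4 and Ppbp, platelet chemokine genes that lie between Cxcl5 and Cxcl3 on the chromosome, were highest in macrophage-like cells at 1462 and 105 CPM over all libraries. In library 2 this was also the highest group for Cxcl3, while Cxcl5 was highest in cluster 16.

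The genes whose levels were most like each of the 5 over 43 groups of cell type and library, among 13074 genes on a log2(CPM + 1) scale, are given as a description, since the groups share 4 libraries and their depth. For Cxcl1 these included Il6 (r = 0.853, 0.810 without library 2) and Vasn (r = 0.831, 0.858 without library 2). For Cxcl2 they were Clec4d (r = 0.916, 0.911 without library 2), Slc7a11 (r = 0.915, 0.893 without library 2) and C5ar1 (r = 0.914, 0.931 without library 2). Cxcl3 was most like Retnlg (r = 0.821, 0.613 without library 2), Fpr1 (r = 0.821, 0.780 without library 2) and Gm5483 (r = 0.806, 0.687 without library 2), and Cxcl5 was most like Mt2 (r = 0.884, 0.769 without library 2), Il11 (r = 0.844, 0.609 without library 2) and Prg4 (r = 0.843, 0.739 without library 2). Cxcr2 had the closest matches, Il1f9 (r = 0.979, 0.982 without library 2), Mrgpra2b (r = 0.943, 0.938 without library 2) and Stfa2l1 (r = 0.942, 0.925 without library 2). Among the 5 themselves Cxcl2 and Cxcl3 were the most alike (r = 0.789, 0.834 without library 2), followed by Cxcl1 and Cxcl5 (r = 0.734, 0.622 without library 2). Without library 2 the pairs of Cxcr2 with Cxcl3 (r = 0.654) and with Cxcl2 (r = 0.633) came before Cxcl1 and Cxcl5. The neighbours Cxcl1 and Cxcl2 had r = 0.20, 0.0550 without library 2.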

How the data were processed

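UMI counts per gene and cell were deposited by the authors in unnormalized form, in 1 matrix holding 53824 cells and 30905 genes. The software was Cell Ranger 3.0.0 and the build mm10. The submitters' processing notes also list CASAVA 1.8 and Seurat. Libraries held 96020294, 115162601, 138892048 and 166079145 UMIs.

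Cell filters (more than 200 genes, mitochondrial share under 20%) left 44626 cells, from which 2231 likely doublets, the 5% of each library with most simulated doublets among 50 neighbours, were removed. After scaling each cell to 10000 UMIs and taking logs, the 2000 most variable genes, without the 5 genes and the 34 pathway genes, gave 10 principal components, a graph of 30 neighbours and Leiden clusters at resolution 0.8 (0.5 for sub-clusters). A cluster was named when 3 or more markers of a type were in at least 10% of its cells and 2-fold above their average elsewhere (10 CPM added to both), unless more of its top 10 genes marked another type or its depth was low. Levels are CPM of all non-mitochondrial UMIs of a group with exact Poisson intervals. Intervals of cell shares are Clopper-Pearson, exact. A 0 is given with the limit that 3 counts set. For shares across depths, cells were thinned to 1000 UMIs and shallower cells left out. A 3′ UMI count does not grow with transcript length, so no length scaling was used. Groups under 50 cells in a library were left out. The text names the 5 genes, pathway genes by role, and the 3 genes most correlated with each, of which 1 is not reported here. The genes and lists were chosen with earlier results of these data known. The level calculation was tested on simulated counts. Python 3.11.15, scipy 1.17.1, scikit-learn 1.9.0 and leidenalg 0.10.2 were used. Of the gene identifiers, 30766 matched GENCODE M21, and 4 of the 5 genes, all but Cxcl5, had an entry in the RefSeq promoter table.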

Additional observations from a re-analysis of the deposited data

Results flagged for a closer look

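The 5 genes were also present in the 9198 cells that the gene and mitochondrial filters left out, at levels above the limit that a count of 0 allows. Cxcl1 stood at 466 CPM, Cxcl2 at 932 CPM, Cxcl3 at 84.3 CPM, Cxcl5 at 85.2 CPM and Cxcr2 at 12.1 CPM. The 753 such cells of library 2 had the highest levels of the 4 libraries for each gene: 1435 CPM of Cxcl1, 2295 of Cxcl2, 896 of Cxcl3, 798 of Cxcl5 and 28.1 of Cxcr2. No cell type was assigned to these cells.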

How the results depend on the processing

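The leading group of each gene was the highest group in 63 of 66 alternative values, and 29 of the 66 lay within the counting interval of the reported level. Cluster 16, which led Cxcl1 and Cxcl5, had 1021 of its 1030 cells in library 2. Equal weights or leaving out another library could therefore hardly move its levels. Settings that gave no value for cluster 16 were not among the 66. In libraries 1, 3 and 4 fibroblast-like cells were the highest group for both genes. The 3 exceptions among the 66 were all Cxcl3. With libraries weighted equally macrophage-like cells led at 1701 CPM against 1618 CPM in granulocyte-like cells. With 20 components an unnamed cluster that held 987 of the 1036 cells of cluster 15 led, and with doublets kept a monocyte-like group led. In the order Cxcl1, Cxcl2, Cxcl3 and Cxcl5, the level in the leading group was 5365, 14376, 4482 and 5942 CPM with 20 components, 4876, 13099.5, 4128 and 5239.8 CPM with doublets kept (Cxcr2 557 CPM), and 5375, 14316, 4620.1 and 5932 CPM with under 10% mitochondrial UMIs. With pathway genes among the variable genes, Cxcl1 was 5360.4 and Cxcl5 5942 CPM. With at least 500 genes per cell, Cxcl1 was 4973, Cxcl2 14318 and Cxcl5 5488 CPM. Cells named by their own markers gave 13357 CPM of Cxcl2, 4980.5 of Cxcl3 and 619.99 of Cxcr2, and no value for cluster 16. At 1000 UMIs per cell the values were 4179 CPM of Cxcl1, 15556 of Cxcl2, 4543 of Cxcl5 and 623 of Cxcr2. Equal weights gave 12512 CPM of Cxcl2 and 619.7 of Cxcr2. Leaving out 1 library in turn gave 4940.5 to 4948 CPM for Cxcl1, 13256 to 16020 CPM for Cxcl2, 279.5 to 5210.3 CPM for Cxcl3, 5445 to 5458 CPM for Cxcl5 and 593 to 633 CPM for Cxcr2. The lowest Cxcl3 value was without library 2, and without that library cluster 16 had too few cells for a value. Why values moved was not tested. After seeing the data, cluster 19 was left out of endothelial-like cells, cluster 16 added to fibroblast-like cells and the highest cell left out of macrophage-like sub-clusters, with the values given in the report. Depth limits Cxcr2 most, with 9928 UMIs in all, and levels outside granulocytes rest on few UMIs. No paired analysis was possible because no label ties the libraries to grafts and no test was run.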

Other observations

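The ligands differed in how evenly they were spread over the cells of a group. In the 998 macrophage-like cells of library 2, the median cell held 75 Cxcl2 UMIs and 22.5 Cxcl3 UMIs, and the highest cells held 1556 and 1145. The top 10% of these cells held 41.7% of Cxcl2, 48.4% of Cxcl3 and 76.2% of Cxcl1. For Cxcl5, with 1694 UMIs in all, the share was 80.3%, and 1 cell held 453 of them. By this share Cxcl1 and Cxcl5 were less even than Cxcl2 and Cxcl3 in these macrophages. Cxcl1 and Cxcl5 also had fewer UMIs, 12580 and 1694 against 154603 and 98547, and the part of abundance in the shares was not tested. In CPM, the Cxcl5 level of these cells did not exceed that of T/NK-like cells of library 2 beyond counting error, with depth not matched. In the 1021 cluster 16 cells of that library the order differed: the top 10% held 42.6% of Cxcl1, 60.9% of Cxcl5, 62.4% of Cxcl2 and 86.6% of Cxcl3. Single cluster 16 cells reached 1896 Cxcl5 UMIs, with a median of 8. Fibroblast-like cells of library 1 held a median of 8 Cxcl1 UMIs per cell, and 44.7% of its UMIs lay in the top 10% of cells.

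In endothelial-like cells, 2 sub-clusters of library 3 differed in Cxcl1 and Cxcl2. The 1618 cells led by Rgs16 and Tnfsf9 held 349 CPM (341 to 358) of Cxcl1 and 241 CPM (234 to 248) of Cxcl2. The 1459 cells led by Aplnr and Postn held 81.9 CPM (75.2 to 88.9) and 64.7 CPM (58.8 to 71.0), 4.27-fold and 3.72-fold lower. The sub-cluster led by Igfbp5, Selp and Sele, genes that include selectins, which slow leukocytes on the vessel wall, held 470.5 CPM of Cxcl1 in its 156 cells of the same library.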
